A study of Bos taurus with 2 samples.

Results

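Cluster 7 of the cultured bovine satellite cells was a group of 1298 of 19096 cells (6.80%) whose summed RNA was poor in ribosomal protein transcripts and rich in transcripts of collagens, matrix proteins and large membrane receptors. Its cells were those that the authors' graph-based clustering put into cluster 7, 1 of 15 clusters, and they were recovered exactly from the deposited average of each gene in each cluster. The 4 genes given as its markers were PDGFRA, a receptor for platelet-derived growth factors that marks fibro-adipogenic progenitors in muscle, COL1A1 and COL1A2, the chains of type I collagen, and NOTCH3, a Notch receptor found on pericytes and other mural cells. The satellite cells came from the longissimus muscle of 1 Holstein male calf aged 2 weeks, by pronase digestion and differential centrifugation, and had been grown for 1 week in DMEM supplemented with fetal bovine serum, glutamine and antibiotics with an antimycotic. The 2 single-cell libraries (3′ chemistry, v3), called replicates 1 and 2, were prepared from the same cells on the 10x Genomics platform, which counts captured RNA molecules as unique molecular identifiers (UMIs). There was no second group of samples, so the libraries differ only technically and say nothing of how animals differ.

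Satellite cells are the myogenic stem cells of adult muscle, and cultures of them also hold fibro-adipogenic progenitors, mesenchymal cells that lie between the fibers, lay down collagen and can become fat cells or fibroblasts. Collagens and other secreted or membrane proteins are made by ribosomes docked on the endoplasmic reticulum (ER), whereas ribosomal proteins, glycolytic enzymes and actin-binding proteins are made by free ribosomes in the cytosol. These facts are background to the gene groups below and not a reading of the data.

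Replicate 1 held 624 cells of cluster 7 among 9939 cells (6.28%, exact 95% binomial interval 5.81 to 6.77%), and replicate 2 held 674 among 9157 (7.36%, interval 6.83 to 7.91%). Intervals here cover counting error only. The cells of cluster 7 were shallow, with a median of 1273 UMIs in replicate 1 and 1534 in replicate 2, against 14626 and 15206 over all cells. They therefore gave 896608 and 1219037 UMIs of the libraries' 145631299 and 137818568, or 0.746% of all UMIs. Only cluster 15 was shallower, at 660.5 and 631 UMIs. Cluster 13, with 1607 and 1647, lay nearest to cluster 7 in depth. Cluster 14 was deeper, with 2413.5 and 2559, and cluster 9 was the deepest cluster, with 22383 and 23601. The shallowest cell of cluster 7 had 503 UMIs and the deepest 7512, and 290 of the 1298 cells had fewer than 1000. A median cell had UMIs of 824.5 genes in replicate 1 and of 969 genes in replicate 2. At least 1 UMI in cluster 7 was seen for 13094 of the 16816 genes detected in the series. Of the 27 barcodes that occurred in both libraries, 3 belonged to a cell of cluster 7, and none marked cells of cluster 7 in both. A doublet caller ranked 3 cells of cluster 7 in the highest 8% of scores of their library.

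**Figure D1:**
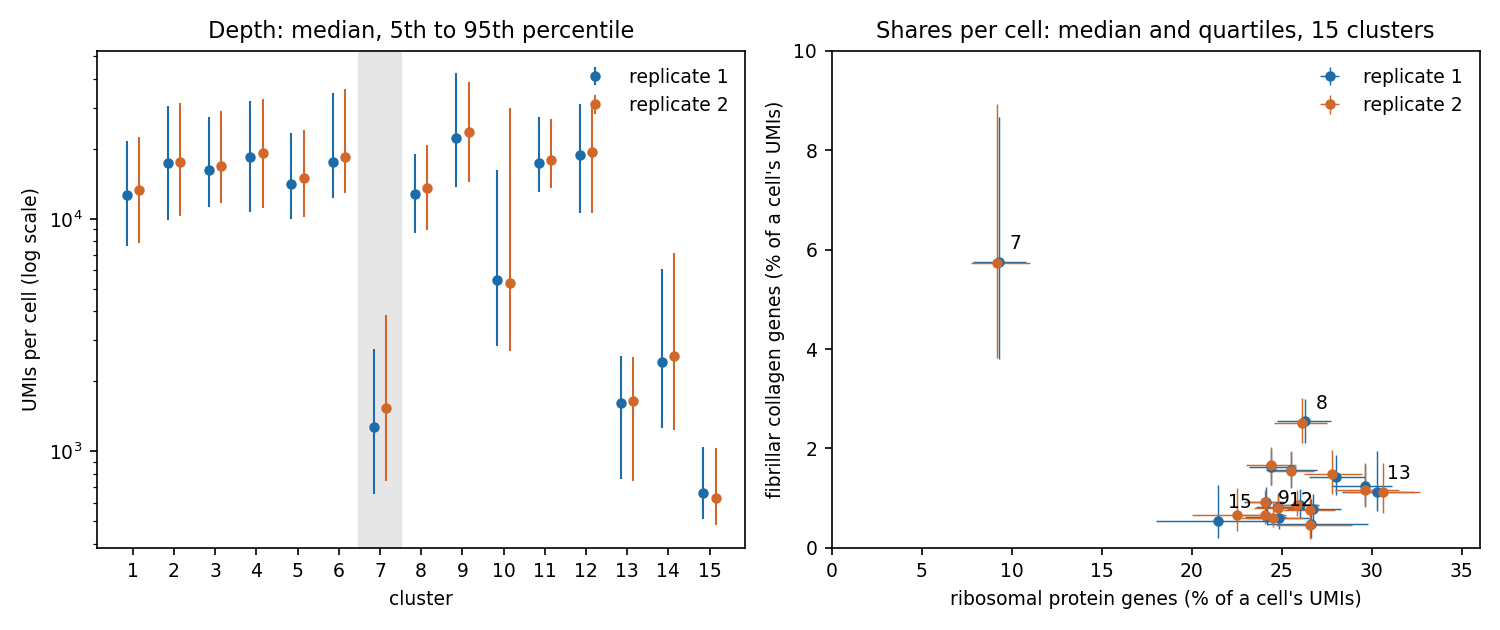
Left, UMIs per cell in each of the 15 clusters on a log axis, with the median as a point and the 5th to 95th percentile as a line for each library; cluster 7 (shaded) was the second shallowest. Right, the percent of a cell's UMIs on ribosomal protein genes and on fibrillar collagen genes, with medians as points and quartiles as lines for each cluster and library; cluster 7 stands alone at about 9.28% and 5.76% in replicate 1, and the numbers mark some of the other clusters.

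The low share of ribosomal protein transcripts was shared by nearly all cells of cluster 7. The median cell spent 9.28% of its UMIs on the 83 cytosolic ribosomal protein genes in replicate 1 and 9.19% in replicate 2, and 9 in 10 cells lay between 6.16% and 13.9% in replicate 1 and between 6.16% and 14.5% in replicate 2. The corresponding medians of cluster 9 were 24.2% and 24.1%, those of cluster 13 were 30.3% and 30.6%, those of cluster 14 were both 26.6%, and those of cluster 15 were 21.4% and 22.5%. The part of depth in these shares was not tested. Below the 95th percentile of cluster 7 lay 33 of 9315 other cells in replicate 1 and 29 of 8483 in replicate 2. Among other cells with under 3000 UMIs these were 7 of 663 and 8 of 631.

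Fibrillar collagen transcripts, which encode the rope-like collagens of connective tissue, showed the opposite picture. The median cell of cluster 7 had 5.76% of its UMIs on them in replicate 1 (quartiles 3.79 and 8.67%) and 5.73% in replicate 2 (quartiles 3.83 and 8.92%). The next highest cluster, number 8, reached medians of 2.54% and 2.52%. Clusters 9, 13 and 14 had medians of 0.629% and 0.659%, 1.13% and 1.11%, and 0.488% and 0.453%. The plot of both shares separates cluster 7 from every other cluster.

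The 4 given markers were each higher in cluster 7 than in the pooled other cells, on a scale of UMIs of the gene per 10000 UMIs of all genes. COL1A2 (ENSBTAG00000013472) had a level of 251 in replicate 1 and 256 in replicate 2, against 47.1 and 49.1 in the other cells. COL1A1 (ENSBTAG00000013103) had 148 and 145, against 32.5 and 32.3. In both libraries these levels were the highest of the 15 clusters, ahead of cluster 8. PDGFRA (ENSBTAG00000007173) had a level of 1.23 in replicate 1 (110 UMIs, exact Poisson interval 1.01 to 1.48) and 1.74 in replicate 2 (212 UMIs, interval 1.51 to 1.99), against 0.315 and 0.293 elsewhere. Cluster 9 had 1.63 and 1.53, so the order of clusters 7 and 9 turned between the libraries and neither can be called the higher. NOTCH3 (ENSBTAG00000043971) had 1.77 and 1.61 (159 and 196 UMIs), against 0.347 and 0.365 in the other cells and 0.803 and 0.782 in cluster 13, the next in order.

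Because deep cells show a gene more often than shallow ones, every cell was also thinned to 1000 UMIs, which left 1008 cells of cluster 7 and dropped 290. PDGFRA was then seen in 10.7% of the cells of cluster 7 (interval 8.87 to 12.8%) and 13.4% of those of cluster 9, but in only 2.75% of cluster 13 and 1.57% of cluster 14. Cluster 12, the cluster with the highest level of muscle structure genes, served as the background for a mesenchymal receptor, with 1.44% (interval 0.658 to 2.71%). NOTCH3 was seen in 14.1% of cells in cluster 7 (interval 12 to 16.4%), against 7.45% for cluster 13, 1.11% for cluster 9 and 0.319% for cluster 12. Before thinning, the kept cells of cluster 7 had a median depth of 1574 UMIs and those of cluster 13 one of 1766, whereas clusters 12 and 9 had 19110 and 23010. Without thinning, PDGFRA was seen in 15.4% and NOTCH3 in 20.03% of all cells of cluster 7. COL1A1 was seen in 97.8% of thinned cells of cluster 7 and COL1A2 in 99.8%, against 56.9% and 92.3% of those of cluster 12, so COL1A2 was present in most cells on both sides.

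Markers of other cell types were checked alongside. PAX7, the transcription factor of quiescent satellite cells, had 0 UMIs in cluster 7 in replicate 1 and 1 in replicate 2, and was nearly as rare elsewhere, at 0.00649 and 0.00593 per 10000. MYOD1, the activator of myogenic commitment, had levels of 2.69 and 2.23 against 4.18 and 3.95 in the other cells. MYF5, a related factor, had 0.714 and 0.738 against 0.981 and 0.923. The 14 myogenic markers together reached 23.5 and 22.0 per 10000, against 16.4 and 16.1, with NCAM1 at 11.8 and 12 their most abundant gene in cluster 7. Of the 5 compared as described below, NCAM1 was higher and MYOD1 lower by at least 2-fold in both libraries after scaling, with a median log2 ratio of -0.70. On plain shares, as its levels above show, MYOD1 was lower by less than 2-fold in both libraries. Over all genes compared, 11% were higher and 15.8% lower, and with 5 genes the count is not read as a result about the list. The fibro-adipogenic and fibroblast markers summed to 598 and 609 per 10000, the highest of the 15 clusters, ahead of cluster 8 with a mean of 285, and against 136 and 137 in the other cells. Nearly all of this level came from COL1A2, COL3A1 and COL1A1, and the list holds 3 of the given markers. Of 13 of these markers compared as described below, COL1A1, COL1A2, COL3A1 and PDGFRA were at least 2-fold higher in both libraries (background 11%). Of these, only COL3A1 is not a given marker. S100A4 was lower, with 3.32 and 3.09 against 7.41 and 7.24 (background 15.8%). Among the rest, DCN had 7.13 and 12 against 7.07 and 6.80, LUM had 3.16 and 4.91 against 2.81 and 2.77, and CD34 had 0 and 1 UMI. Among pericyte markers, CSPG4 and NOTCH3 carried nearly all of the signal, and MCAM (2 and 1 UMIs) and PDGFRB (2 and 4 UMIs) were near 0. CDH5 of endothelium, CSF1R and PTPRC of immune cells, SOX10 of glia, TNMD of tendon, HBB and ALAS2 of the erythroid line, and ADIPOQ and LEP of fat cells had no UMI in cluster 7. The summed endothelial markers were at 0.0335 and 0.0328 per 10000 and the immune markers at 0.212 and 0.115, of which CD68, a lysosomal protein of macrophages that other cells also make, gave 17 and 13 UMIs. Cluster 7 is called by its number here: it carried the 4 given markers, but its cells were far shallower than the median cell of their libraries, and PDGFRA was seen in a minority of them.

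To compare genes, UMIs were summed over the cells of each side in each library, scaled by the trimmed mean of M-values (TMM), and expressed as a log2 ratio of cluster 7 to the other side. A gene counted as higher or lower when it was at least 2-fold so in each library and had at least 20 UMIs, observed or expected, in cluster 7 in each. A gene rare on the other side could thus pass only through its UMIs in cluster 7, and could then not be called lower. Likewise, a gene rare in cluster 7 could pass only through the other side and not be called higher. How many genes did so was not counted. No test was made, because the clusters were formed on these same counts and both libraries hold the same cells. Against all other cells, 687 of 6273 genes (11%) were higher and 992 (15.8%) lower. Against cluster 9 the numbers were 1034 (16.3%) and 1085 (17.1%) of 6361, against cluster 13 they were 650 (10.2%) and 807 (12.7%) of 6344, and against cluster 14 they were 1148 (18.3%) and 1167 (18.6%) of 6270. These 4 comparisons share the sums of cluster 7. In all 4 of them, 242 of 6082 genes were higher and 430 lower.

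The split into higher and lower genes depended on the scaling. On plain shares of UMIs the median gene lay 0.41 above 0 on the log2 scale against all other cells, and 1433 genes were higher and 428 lower. Higher genes thus made up 40.9% of the calls after TMM and 77.0% on plain shares against all other cells. The corresponding percentages were 48.8% and 72.3% against cluster 9, 44.6% and 76.0% against cluster 13, and 49.6% and 77.3% against cluster 14. All log2 ratios below are after TMM, where the median gene stood at -0.02 against all other cells, and all levels are plain shares. A gene called lower can therefore differ by less than 2-fold in its levels.

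Of the 12 called genes most in excess of all other cells, among those with a symbol and a level of at least 1, most encode proteins of the matrix or the cell surface. THBS2, a thrombospondin of the matrix, led with 1.07 and 1.29 per 10000 against 0.0879 and 0.0867 (mean log2 ratio 3.25). CSPG4, the membrane proteoglycan NG2, followed with 2.07 and 2.49 against 0.214 and 0.207 (2.97). ITGA5, a chain of the fibronectin receptor, had 8.72 and 9.11 against 0.925 and 0.945 (2.82), and its ligand fibronectin, FN1, had 16.8 and 17.5 against 2.46 and 2.49 (2.36). For each of these genes the values of the libraries differed by far less than the sides did. These are sums over the cluster, and cells high in a panel of genes of cluster 9, described below, carried most of the UMIs of THBS2, CSPG4, ITGA5 and FN1. ITGA5, like CD248, SLC6A17 and SFRP2 below, is itself a gene of that panel. CD248, a surface glycoprotein of stromal cells, also stood high (2.79), but with 1.29 in replicate 1 and 2.58 in replicate 2 its level was less even. The rest of the 12 were COL4A1 of basement membranes (2.66), the proteoglycan VCAN (2.58), tenascin C or TNC (2.53), the transporter SLC6A17 (2.44), the receptor-like kinase PTK7 (2.27), the secreted Wnt modulator SFRP2 (2.21) and fibrillin 1 or FBN1 (2.20).

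A gene with no symbol in the feature list, ENSBTAG00000050274, was chosen after its values were seen, for its high level in cluster 7. It had a level of 245 in replicate 1 and 127 in replicate 2, against 13.5 and 8.55 in the other cells, and a mean log2 ratio of 3.61. The libraries differed in it on both sides.

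Collagens were the most abundant of the higher groups. Of the 7 fibrillar collagen genes compared, 6 were higher and none lower, with a median log2 ratio of 1.75 (background 11%). These include the given markers COL1A1 and COL1A2, whose levels, given above, make up most of the sum, and 4 of the other 5 genes were higher. Over all 10 genes of the list the summed level was 621 ± 2.89 per 10000 (mean ± SD, n = 2 libraries), against 123 ± 1.40 in the other cells. COL3A1 had 175 and 177 against 33.9 and 33.7, and COL5A1, which starts collagen fibrils, had 39.0 and 38.7 against 7.22 and 7.68. COL11A1 and COL27A1 completed the 6, at log2 ratios of 1.32 and 1.35. The seventh, COL5A2, was at 1.22 but under 2-fold in replicate 1. Of the other collagens, 6 of 7 were higher, led by COL18A1 (2.70) and COL4A1 (2.66) and including COL6A1, COL6A2, COL12A1 and COL15A1. The 11 and 33 symbols of these lists matched 10 and 27 genes of the files, and those not compared were below the UMI minimum.

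Enzymes that modify, fold and cut collagen chains were in part higher, 12 of 23 with none lower and a median of 1.10, beside 11% of all genes. They included BMP1, which removes the procollagen tail (1.89), ADAMTS2 (1.77), the prolyl and lysyl hydroxylases P3H1 (1.48), P3H3 (1.84), P4HA2 (1.10), PLOD1 (1.25) and PLOD3 (1.6), and the collagen chaperone SERPINH1 (1.13). SERPINH1 had levels of 30.6 and 36.3 against 11.2 and 11.4. PPIB, a small prolyl isomerase that works on the same chains, had 8.61 in replicate 1 and 18.3 in replicate 2, against 11.6 and 11.7, and so lay below the other cells in the first library and above them in the second.

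Matrix glycoproteins were higher in 15 of 21 genes with none lower (median 1.46, background 11%), with a summed level of 197 and 223 against 66.9 and 67.3. Beside THBS2, FN1, TNC and FBN1 they included FBN2 (2.79), FBLN2 (2.18), periostin or POSTN (1.85), THBS1 (1.77) and the growth-factor-binding proteins LTBP1, LTBP2 and LTBP3. SPARC, a collagen-binding protein and the most abundant member, had 51.2 and 76.1 against 35.9 and 36.3 and was not called (0.36). All 9 basement membrane genes compared were higher (median 2.05), among them perlecan or HSPG2 (2.44), LAMB2 (2.11), LAMA4 (2.05), LAMB1 (1.89), LAMC1 (1.49) and both nidogens. Proteoglycans were higher in 6 of 14 genes (median 0.85, background 11%): these were CSPG4, VCAN, HSPG2, BGN, GPC1 and GPC4, whereas the small leucine-rich members DCN and LUM stood at -0.01 and 0.07.

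Large membrane receptors, a list that does not stand for receptors in general, were higher in 17 of 24 genes with none lower (median 1.61, background 11%). They included LRP1 (2.37), a scavenger receptor, PLXNB2 (2.13), the giant cadherin FAT1 (1.99), IGF2R (1.97) and the collagen receptors MRC2 (1.84) and DDR1 (1.6). IGF2R, which carries lysosomal enzymes, had 6.57 and 6.58 against 1.23 and 1.25. Integrins were higher in 5 of 7 genes (median 1.27, background 11%), with ITGA7, a laminin receptor of muscle cells, at 10.8 and 9.76 against 2.10 and 2.12. ITGB1, the shared beta chain, had 10.2 and 13.3 against 4.73 and 4.27 and was not called.

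In the Notch pathway, which acts between touching cells and keeps satellite cells undifferentiated, 6 of 16 genes were higher and none lower (median 1.00, background 11%). NOTCH3 among them is a given marker. They were the receptors NOTCH1 (2.43), NOTCH2 (1.66) and NOTCH3 (1.80), the ligands DLL1 (1.88) and JAG1 (1.69), and the target gene HES1 (1.5). DLL1 had 1.42 and 1.39 against 0.286 and 0.275, and HES1 had 6.31 and 4.75 against 1.52 and 1.36. The transcription factor RBPJ, through which all the receptors act, had 1.26 and 1.14 against 0.949 and 0.917 (-0.07). For signals of the TGF-beta and BMP family, 6 of 22 genes were higher and 2 lower (background 11% and 15.8%). INHBA, the activin A chain, had 2.05 and 2.46 against 0.427 and 0.355 (2.09), and the BMP targets ID1 and ID2 were lower, ID1 with 5.83 and 5.90 against 10.5 and 10.5 (-1.27).

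**Figure D2:**
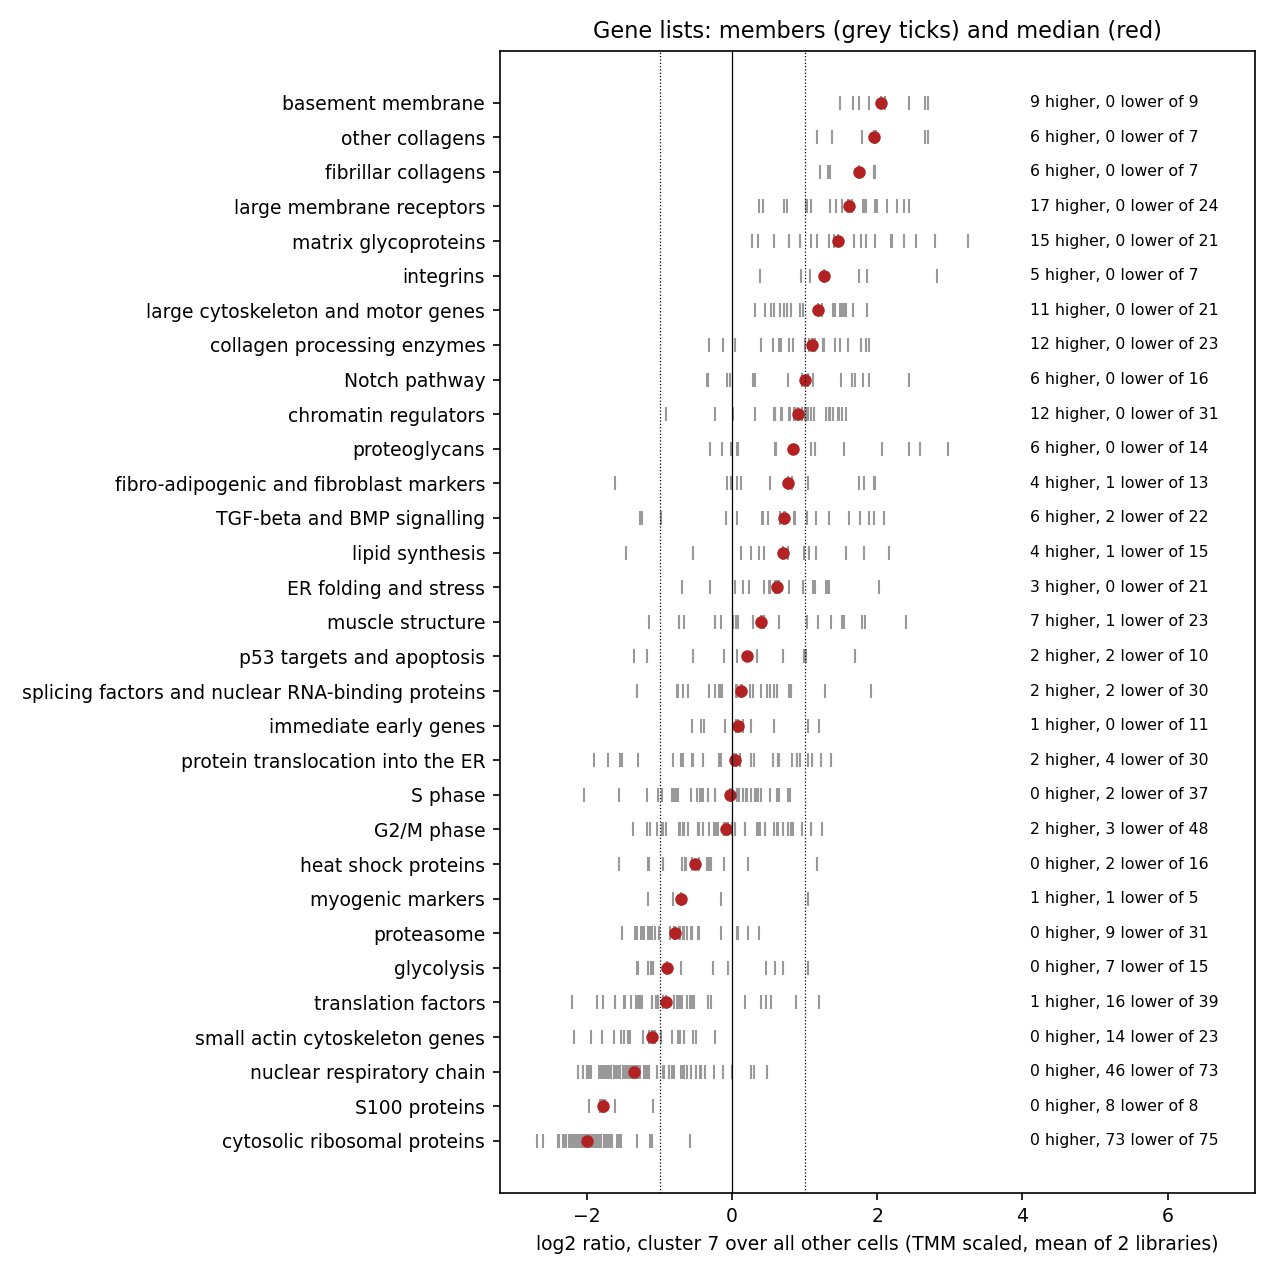
Log2 ratio of cluster 7 over all other cells after TMM scaling, mean of both libraries, for the gene lists with at least 5 genes compared; grey ticks are genes, red points list medians, dotted lines 2-fold, and the counts of higher and lower genes stand at the right. Basement membrane genes had the highest median (2.05) and ribosomal protein genes the lowest (-2.01).

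Ribosomal protein genes made up the other extreme. Of 75 compared, 73 were lower and none higher (background 15.8%), with a median of -2.01 and a summed level of 899 and 892 against 2582 and 2574 per 10000. RPS12 had 26.3 and 25.2 against 103 and 99.3 (-2.40), RPLP0 had 21.9 and 21.3 against 80.8 and 77.9 (-2.31), and RPL32 had 12.2 and 12.7 against 45.9 and 46.9 (-2.32). RPS21 (-1.13) was among those not called. In all 4 comparisons 71 of the 83 genes were lower. The symbol RPL12 stands for 2 genes of the files, at -2.69 and -2.61, between which the counting may divide reads. Ribosomal protein genes also have many near-identical copies in mammalian genomes.

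Genes for several other groups of abundant cytosolic and mitochondrial proteins lay on the same side. The share of all genes that were lower, 15.8%, is the background to each count here. Translation factors were lower in 16 of 39 genes and higher in 1, EIF5B (median -0.91). TPT1 had 10.5 and 11.8 against 37.0 and 39.7 (-2.21), and EEF1A1 had 33.1 and 37.2 against 66.1 and 80.9 (-1.49). EEF2, at 20.1 and 17.6 against 17.4 and 17.6, was not called. Nuclear genes of the respiratory chain were lower in 46 of 73 genes with none higher (median -1.35), with ATP5F1E at 2.97 and 3.23 against 8.56 and 9.15 (-1.94). Glycolytic genes were lower in 7 of 15 with none higher (median -0.89), GAPDH having 18.9 and 18.9 against 33.8 and 35.6 (-1.30). In summed level, cluster 7 lay only slightly below cluster 13 in both lists. Glycolytic genes had 94.9 and 93.4 against 100 and 101, and respiratory chain genes 148 and 163 against 164 and 174. Clusters 14 and 15 lay higher, with glycolytic levels of 129 and 131, and 146 and 144. Their respiratory chain levels were 296 and 298, and 289 and 279.5. All 8 S100 genes compared, small calcium-binding proteins, were lower (median -1.78), and S100A11 had 13 and 12.7 against 32.7 and 31.8 (-1.75). Proteasome genes were lower in 9 of 31 (median -0.79).

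Genes of the cytoskeleton were described in 2 lists, built as small and large proteins. Small actin-associated genes were lower in 14 of 23 with none higher (median -1.10, background 15.8%), with the actin-sequestering peptide TMSB10 at 20.6 and 19.5 against 66.9 and 67.6 (-2.17), profilin or PFN1 at -1.94 and cofilin or CFL1 at -1.80. Genes of the large list, giant crosslinkers and motors, were higher in 11 of 21 with none lower (median 1.19, background 11%). FLNA had 27.9 and 28.3 against 7.03 and 7.32 (1.54), AHNAK had 27.4 and 26.0 against 6.23 and 6.23 (1.67), and plectin or PLEC was at 1.85. Chromatin regulators, which act in the nucleus, were higher in 12 of 31 with none lower (median 0.91, background 11%), among them CHD2 (1.57), EP400 (1.47), KMT2C (1.40) and ATRX at 7.81 and 6.76 against 2.17 and 2.12 (1.33). Of the splicing genes, SON (1.91) and SRRM2 (1.28) were higher and SRSF3 and HNRNPC lower, out of 30. The lengths of the proteins and transcripts were not analysed here.

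The lowest genes outside the ribosome had varied roles. Among the 12 lowest were NUTF2, an importer of Ran into the nucleus (0.379 and 0.369 against 1.43 and 1.53), PSMG4, a proteasome assembly factor, GABARAP of autophagosomes (1.01 and 1.02 against 3.92 and 3.93), C11H9orf16, and FTL, the ferritin light chain (5.03 and 4.54 against 17.8 and 17.8). NPAS2, a clock transcription factor, was among them (-2.32) with 8.76 and 9.96 against 32.5 and 37.1. It lies beside the ribosomal protein gene RPL31 in the order of genes on the ARS-UCD2.0 assembly, and RPL31 had no symbol in the feature list used, so that the reads behind NPAS2 cannot be told apart here.

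Most genes of the machinery of secretion were not called. Of 21 genes of ER folding and stress, 3 were higher and none lower, a share near the 11% of all genes: HYOU1 (2.03), HSPA5, the chaperone BiP (1.34), and PDIA4 (1.30). HSPA5 had 19.2 and 23.6 against 6.35 and 6.17. CALR, a chaperone of glycoproteins, had 21.8 and 34.6 against 13.5 and 13 and missed 2-fold in both libraries. The summed level of the list was 117 and 169, in both libraries the highest of the 15 clusters, ahead of cluster 9 with a mean of 91.6. Among 30 genes of protein entry into the ER, the ribosome-binding RRBP1 (1.36) and CKAP4 (1.22) were higher, while 4 genes, a share near the 15.8% of all genes, were lower: SEC61B (-1.90) and SEC61G (-1.51) of the channel and SRP14 (-1.71) and SRP19 (-1.54) of the signal recognition particle. SEC61B had 2.34 and 2.22 against 6.30 and 6.39.

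Lists for the state of the cells showed smaller or mixed differences, and the counts for S phase, G2/M, heat shock and immediate early genes did not exceed the 11% of all genes that were higher or the 15.8% that were lower. S phase genes were lower in 2 of 37 and G2/M genes higher in 2 and lower in 3 of 48, with medians of -0.03 and -0.08, which on plain shares were 0.40 and 0.35. The 2 lower S phase genes were GINS2 and CENPU. CENPF, a very large kinetochore protein, was the higher gene with the most UMIs, at 22.8 and 18.8 against 6.65 and 6.46 (1.23), with CENPE beside it, whereas UBE2C, BIRC5 and CKS2 were lower. Of 16 heat shock genes, HSPE1 and CRYAB were lower and none was higher. Of 11 immediate early genes KLF6 was higher (1.2), and the median of the list was 0.08, or 0.51 on plain shares. Summed, this list had a level of 32.3 and 28.8, the highest of the 15 clusters in both libraries, ahead of cluster 11 with a mean of 18.8. JUN had 9.95 and 7.69 against 5.43 and 5.42 (0.26). Among 10 p53 targets and apoptosis genes TNFRSF10D and SESN2 were higher, BAX and CCNG1 lower. Of 15 lipid synthesis genes 4 were higher and 1 lower (background 11% and 15.8%). The summed level of these genes was the highest of the 15 clusters in both libraries, ahead of cluster 3 with a mean of 16.9. The sterol regulators SREBF1 (2.16) and SREBF2 (1.57) and the triglyceride enzyme DGAT1 (1.15) were among the higher genes, and IDI1 (-1.46) was the lower one. Neither of the 2 adipogenic regulators and none of the 3 smooth muscle markers compared was called, and S100B, the only glial marker compared, was lower. Mitochondrially encoded genes and nuclear noncoding RNAs had no matching symbol and were not analysed here.

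Contractile and other muscle genes were uneven. Of 23, 7 were higher against all other cells and 1 lower (background 11% and 15.8%, median 0.40, or -0.16 with the other clusters weighted equally). MYH3, the embryonic myosin, had 5.10 and 4.39 against 0.962 and 1.06 (1.79), NEB, the giant ruler protein of thin filaments, had 10.2 and 8.26 against 2.40 and 2.29 (1.54), and CHRNG, a chain of the fetal acetylcholine receptor, had 3.08 and 2.73 against 0.745 and 0.763 (1.51). MYOM2 (2.39), XIRP1 (1.83), ACTN3 (1.37) and CHRNA1 (1.18) completed the higher genes, and CRYAB was lower. DES had 6.17 and 4.91 against 4.6 and 4.48, and ACTC1 had 31.2 and 29.0 against 21.5 and 21.6, and neither was called. These are sums over the cluster. Cells high in a panel of genes of cluster 12, described below, held 413 and 470 UMIs of MYH3, most of those in cluster 7. MYH3 and ACTN3 are themselves genes of that panel. The median cell of cluster 7 had 0.593% and 0.526% of its UMIs on muscle structure genes, against 0.531% and 0.515% in cluster 1. In cluster 12 the medians were 4.11% and 3.87%.

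Cluster 9 was the cluster most like cluster 7 in PDGFRA. The 6 genes most in excess of it were the muscle genes NEB (5.08), MYH3 (4.85), CHRNG (4.64), ITGA7 (4.29), XIRP1 (4.26) and CHRNA1 (3.99). NEB had 0.289 and 0.149 in cluster 9. Some muscle genes, NEB, MYH3 and CHRNG among them, were so rare in cluster 9 that they passed the UMI minimum only through cluster 7. They could not be called lower, so the count of muscle genes is not given and the ranks above are a description only. The lowest were FABP5, a fatty acid carrier (0.312 and 0.418 against 2.16 and 2.31), HSPB7, COTL1, MARCKSL1, the chemokine CCL2 (0.602 and 1.78 against 5.03 and 4.64) and NHP2. COL1A1 (2.22), COL1A2 (2.87) and NOTCH3 (2.60) were higher than in cluster 9, and PDGFRA was not called (-0.46). Ribosomal protein genes were lower in 73 of 75 (background 17.1%).

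Clusters 13 and 14 were the other shallow clusters compared, the first close to cluster 7 in depth and the second deeper. Against cluster 13, the highest genes included COL4A1 (2.91), VCAN (2.89), THBS2 (2.88), the urokinase receptor PLAUR (2.81) and COL6A1 (2.73). The lowest were RPS26 (6.22 and 5.29 against 40.7 and 40.8), RPLP1 (15.7 and 15.9 against 112 and 107), RPS12, C11H9orf16, PPDPF and POLR1D. Of 31 proteasome genes 4 were higher and none lower (median 0.52), a share near the 10.2% of all genes. Respiratory chain genes were lower in 20 and higher in 4 of 72 (background 12.7% and 10.2%). NOTCH3 was not called against cluster 13 (0.67). Against cluster 14, THBS2 (3.76), CARD10 (3.53), ITGA5 (3.51), TNC (3.46), SLC6A17 (3.44) and VCAN (3.40) were the highest, and S100A4 (3.32 and 3.09 against 19 and 21.6), GPX1, S100A2, RPS27L, ADIRF and TMEM126A the lowest. Against both clusters, THBS2 passed the UMI minimum only through cluster 7. Large cytoskeleton genes were higher in 20 of 21 and chromatin regulators in 22 of 31, beside 18.3% of all genes. Ribosomal protein genes were lower in 72 of 75 against cluster 13 (background 12.7%) and in 74 of 75 against cluster 14 (18.6%). The medians of the fibrillar collagens were 1.29 and 2.86.

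Within cluster 7, cells of every depth shared the low ribosomal and high collagen levels. In cells with under 1000, from 1000 to under 2000, and 2000 or more UMIs, the summed ribosomal protein level in replicate 1 was 1100, 903 and 787 per 10000 (177, 347 and 100 cells), and in replicate 2 it was 1215, 941 and 803 (113, 353 and 208 cells). Fibrillar collagens went from 727 to 676 and 462 in replicate 1 and from 729 to 754 and 498.97 in replicate 2. Both groups were thus lowest in the deepest cells, though collagens stayed above the 259 of cluster 8 and ribosomal proteins far below the 2207 of cluster 15, the nearest other cluster. Muscle structure genes were highest in the deepest cells, at 182 in replicate 1 and 123 in replicate 2, against 95.2 and 78.2 in the shallowest. NOTCH3 was lowest in them, with 1.2 and 1.08 against 2.88 and 2.08. PDGFRA showed no shared order, at 1.05, 1.38 and 1.05 in replicate 1 and 1.32, 0.982 and 2.43 in replicate 2.

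**Figure D3:**
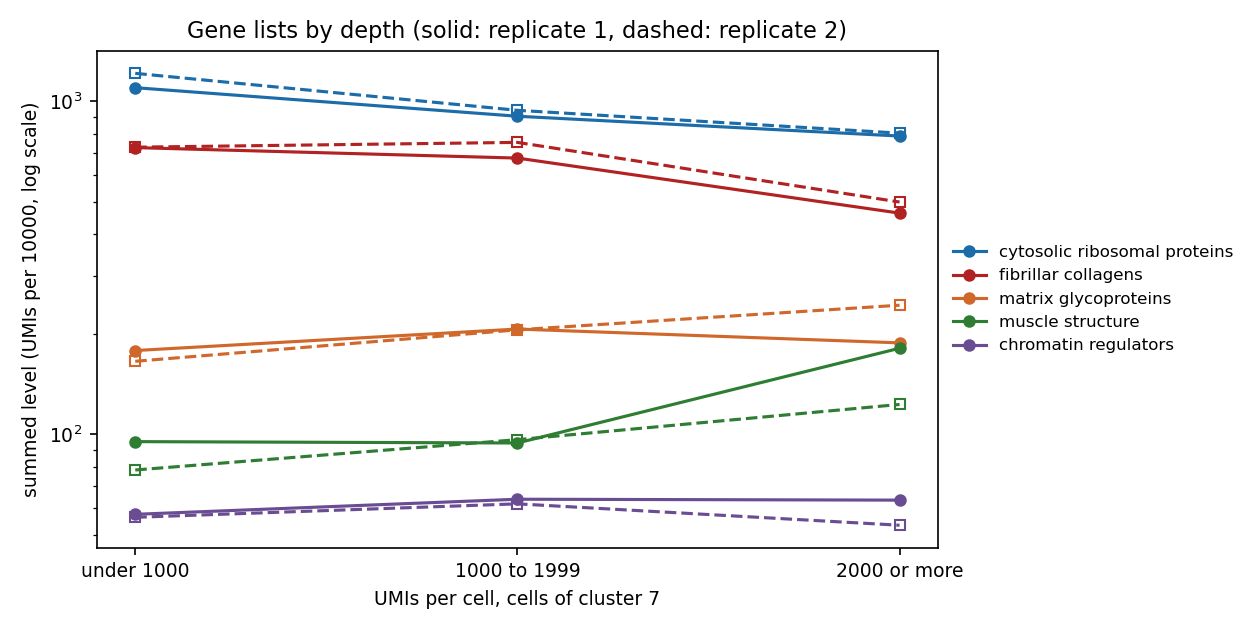
Summed levels of 5 gene lists in cells of cluster 7 split by UMIs per cell, on a log axis, with filled points and solid lines for replicate 1 and open points and dashed lines for replicate 2. Ribosomal protein levels went from 1100 to 787 in replicate 1 and from 1215 to 803 in replicate 2, and chromatin regulators stayed between 53.4 and 63.9.

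That a receptor of mesenchymal cells and contractile genes were both high led to the question of whether they were high in the same cells. For this, 2 panels of 20 genes each were chosen after the data were seen, the named genes most in excess in cluster 9 (CCL2, INHBA, SFRP2, BGN, CDH11 and others) and in cluster 12 (ACTA1, MYOZ2, TNNI2, MYLPF, MYOG and others), without the given markers, collagens or ribosomal proteins. A cell was called high in a panel when its summed level reached the 10th percentile of the panel's own cluster, 42.46 per 10000 for panel 9 and 78.59 for panel 12. By this rule 89.9% of cluster 9 was high in panel 9 and 89.95% of cluster 12 in panel 12. These classes are ranges of a score and not cell types.

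In cluster 7, 332 cells (25.6%, interval 23.2 to 28.0%) were high in panel 9, namely 147 of 624 in replicate 1 and 185 of 674 in replicate 2. A further 95 cells (7.32%, interval 5.96 to 8.87%) were high in panel 12, 49 and 46 in the libraries. No cell was high in both, which allows a share of up to 0.231%, and 871 cells (67.1%) were high in neither. Near the limits lay 90 cells for panel 9 and 32 for panel 12. In the other shallow clusters, 8.14% of cluster 13, 4.48% of cluster 14 and 4.73% of cluster 15 were high in panel 9, and 1.66%, 6.05% and 9.78% in panel 12. Limits at the 5th and 25th percentile gave 376 and 298 cells for panel 9 and 107 and 77 for panel 12, again with none high in both.

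**Figure D4:**
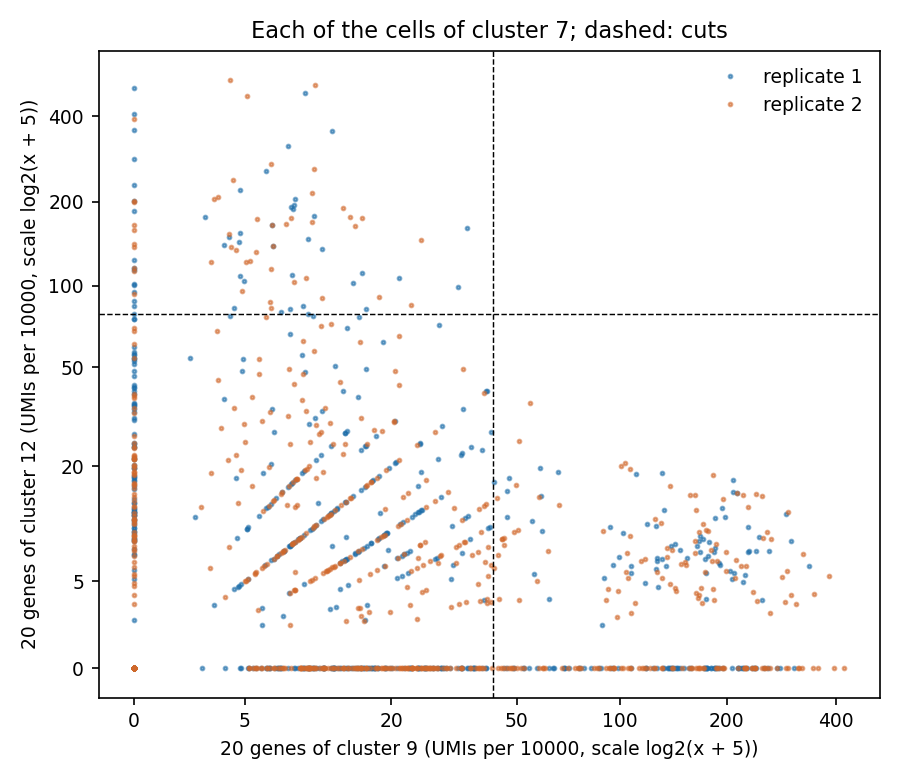
Each of the 1298 cells of cluster 7 by its summed level of the 20 genes of cluster 9 (horizontal) and of the 20 genes of cluster 12 (vertical), in UMIs per 10000 on a log2(x + 5) scale, colored by library; dashed lines are the limits at 42.46 and 78.59. The upper right field, high in both, is empty, and the straight rows of points are cells with few UMIs of either panel.

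PDGFRA and NEB, which are in neither panel, were divided unequally among the classes of cluster 7. Cells high in panel 9 held 25.2% of the cluster's UMIs in replicate 1 and 30.6% in replicate 2, but 80.9% and 82.5% of its PDGFRA UMIs and 0.547% and 0.794% of its NEB UMIs. Those high in panel 12 held 10.4% and 8.27% of all UMIs, 0.909% and 1.89% of the PDGFRA UMIs and 42.7% and 43.8% of the NEB UMIs. The cells high in neither, with 64.4% and 61.1% of all UMIs, gave 18.2% and 15.6% of the PDGFRA UMIs and most of the NEB UMIs, 56.8% and 55.4%. How often both genes were seen in the same cell was not counted. The cells high in neither had a PDGFRA level of 0.346 and 0.443, against 3.94 and 4.69 in those high in panel 9, and a NEB level of 8.99 and 7.49. DCN, a proteoglycan common to most of these clusters, was less divided, with 40.1% and 39.8% of its UMIs from cells high in panel 9.

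The low ribosomal and high fibrillar collagen levels were found in all 3 classes of cell. Ribosomal protein levels were 816 and 848 per 10000 in cells high in panel 9, 755 and 750 in those high in panel 12 and 954 and 933 in the rest. Fibrillar collagens were at 576 and 521, 430 and 420, and 666 and 701. The other collagens were divided, with 41.0 and 46.4 in cells high in panel 9, 3.54 and 4.56 in those high in panel 12 and 11.9 and 13.5 in the rest, against a mean of 7.54 in cluster 9, the highest of the other clusters. THBS2 had 4.07 and 4.04 in cells high in panel 9, which gave 92 of its 96 UMIs in replicate 1 and 151 of 157 in replicate 2, but 0.0693 and 0.0537 in cells high in neither (4 UMIs in each library), no higher than in the pooled other cells. CSPG4 had 6.28 and 6.40 against 0.710 and 0.846 in cells high in neither, and FN1 had 44.8 and 40.9 against 8.05 and 7.65, both still above the pooled other cells. In cells high in panel 12 FN1 had 2.79 and 3.97, and THBS2 had 0 and 2 UMIs. NOTCH3 was highest in the rest, with 2.06 and 1.96, against 1.55 and 1.15 in cells high in panel 9 and 0.536 and 0.695 in those high in panel 12. G2/M genes were at 125 and 108 in the rest, 91.3 and 88.4 in cells high in panel 9 and 23.5 and 33.1 in those high in panel 12. The median depths were 1415 and 1724 UMIs for panel 9, 1635 and 1966 for panel 12, and 1188 and 1435 for the rest.

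Each class was then compared with the cells of its own panel's cluster that were high in the same panel, leaving the panel genes themselves out of what is described. Between cells of clusters 7 and 9 high in panel 9, 472 of 2629 genes (18.0%) were higher and 518 (19.7%) lower, or 586 and 391 on plain shares. COL1A1 had 175 and 140 per 10000 against 23.3 and 25.2 (log2 ratio 2.51), COL3A1 had 130 and 131 against 16.5 and 17.1 (2.77), FN1 had 44.8 and 40.9 against 6.45 and 6.92 (2.49) and CSPG4 had 6.28 and 6.40 against 0.876 and 0.929 (2.60). All 5 fibrillar collagens compared were higher, and 69 of 74 ribosomal protein genes were lower. PDGFRA had 3.94 and 4.69 against 1.70 and 1.6 and missed 2-fold in replicate 1 (1.19). DCN had 11.3 and 15.6 against 9.75 and 9.14 and was not called. NEB, with 0.221 and 0.214 against 0.165 and 0.126, was too rare to be compared. Other muscle genes were also rare in these cells, and their count is not given. MYLPF had 1.64 and 1.47 against 0.528 and 0.399 (1.54), and TNNC2 had 1.28 and 0.804 against 0.418 and 0.308 (1.27). Both, as well as CSPG4 in replicate 1, passed the UMI minimum only through the cells of cluster 7. TNNC1 (1.52) and ACTA1 (1.29) had similar ratios but too few UMIs to be compared, and DES was at 1.00 but not called.

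Between cells of clusters 7 and 12 high in panel 12, 229 of 997 genes (23.0%) were higher and 226 (22.7%) lower. COL1A2 had 244 and 225 against 37.2 and 37.1 (2.64), and COL1A1 had 62.2 and 62.7 against 12.1 and 10.8 (2.43). Again all 5 fibrillar collagens compared were higher, while 68 of 73 ribosomal protein genes were lower. Among muscle genes outside the panel, NEB had 41.8 and 43.8 against 15.3 and 14.6 (1.5), XIRP1 had 8.69 and 6.85 against 2.26 and 1.94 (1.84), CHRNG had 13.7 and 13.9 against 4.05 and 4.32 (1.69) and ITGA7 had 18.9 and 22.3 against 4.04 and 4.12 (2.30). Of these, XIRP1 passed the UMI minimum only through the cells of cluster 7 in the second library. DES, the intermediate filament of muscle, was not called, with 21.2 and 23.1 against 22.8 and 22.6, nor was MYOD1, with 3.54 and 3.77 against 3.99 and 3.81, or the troponin gene TNNC2, with 27.8 and 27.5 against 39.1 and 39.2 (-0.52). The muscle structure list holds genes of the panel, on which both sides were chosen, so its count is not given. Large cytoskeleton genes were higher in 17 of 18 here and in 13 of 19 in the comparison with cluster 9. Respiratory chain genes were lower in 28 of 52 and in 39 of 68, respectively. PDGFRA, with 1 and 4 UMIs in these cells of cluster 7, was too rare to be compared.

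**Figure D5:**
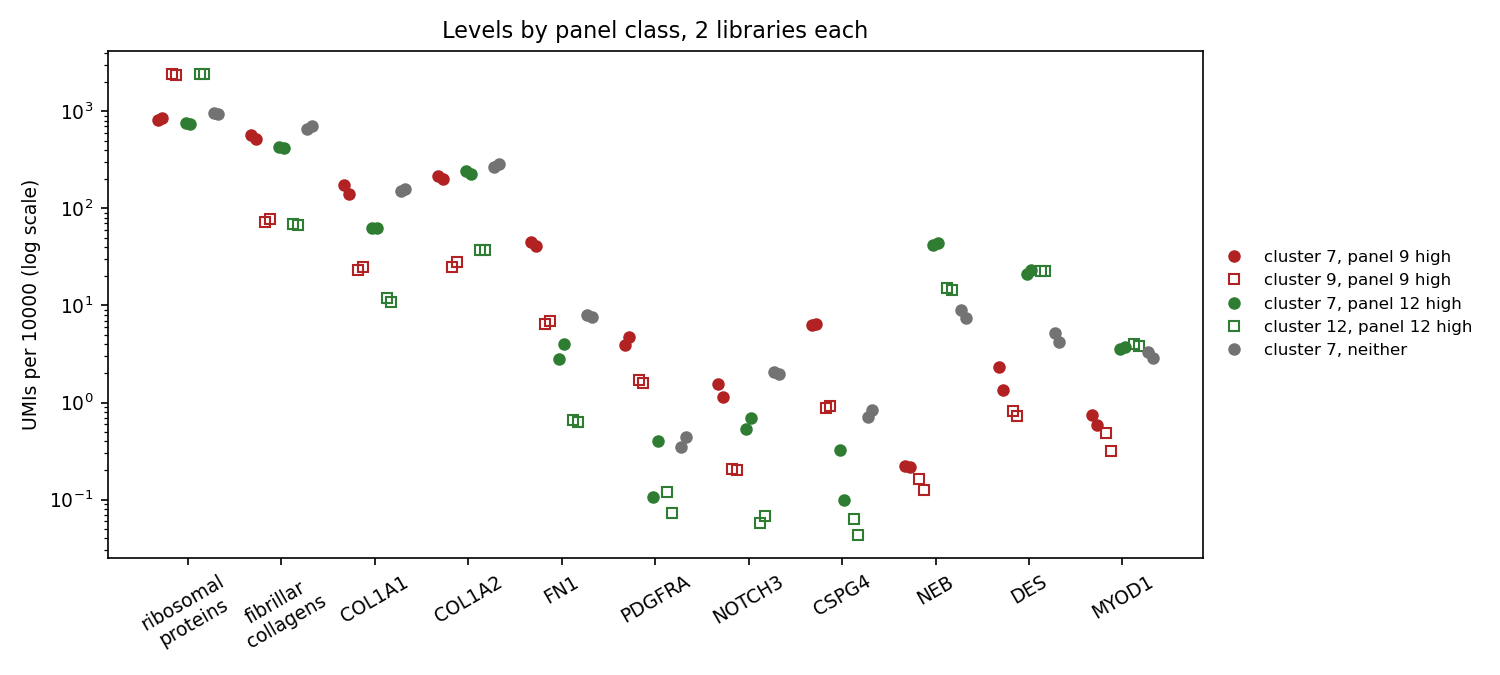
Levels of 2 gene lists and 9 genes in UMIs per 10000 on a log axis, with a point for each library; filled circles are classes of cluster 7, open squares the cells of clusters 9 and 12 high in the same panel. In each class of cluster 7 ribosomal proteins lay between 750 and 954 against 2401 to 2442 in the matched cells, and fibrillar collagens between 420 and 701.

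The libraries were close but not equal in cluster 7. Over the 6273 genes compared, which are not independent, their log2 levels had a Pearson correlation of 0.962. Of 3765 genes with at least 100 UMIs in cluster 7, 273 were at least 1.5-fold higher in replicate 2 and 88 in replicate 1, whereas in all other cells 10 and 3 of the same genes were. Cluster 7 held only 0.746% of all UMIs, so counting error was far larger in it. How many genes would pass by counting error alone was not tested. Among the 8 genes with a symbol most in excess in replicate 2, B2M had 2.84 in replicate 1 and 7.76 in replicate 2, TIMP2 had 2.87 and 8.06, CCL2 had 0.602 and 1.78, TMCO1 had 0.792 and 2.33, and NDUFA13 of the respiratory chain had 0.669 and 1.93. In all other cells TIMP2 (3.22 and 4.94) and NDUFA13 (0.854 and 1.39) were also over 1.5-fold higher in replicate 2, whereas B2M (3.97 and 3.87), CCL2 (0.553 and 0.469) and TMCO1 (0.958 and 0.991) were not. The ER folding genes summed to 117 in replicate 1 and 169 in replicate 2. In cells with 2000 or more UMIs these sums were 122 and 221, and in cells with under 1000 they were 98.7 and 98.5, so the gap lay in the deeper cells. Replicate 2 held 208 of the deeper cells and replicate 1 held 100. The part of this unevenness in the other results was not tested.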

How the data were processed

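The authors processed reads with Cell Ranger 3.0.2, per the submitters' processing notes, on ARS-UCD1.2 with a filtered Ensembl release 95 annotation, and combined both libraries at equal read depth. The deposited counts are whole UMIs per gene and cell, and the authors also deposited, in a further table, the average of each gene in each of 15 clusters, as scaled UMI counts of no standard unit. The 30 columns of that table that hold the authors' own fold changes and p-values were not used. The averages convert to whole UMI sums, deviating from whole numbers by at most 0.000114, and every cell's cluster was deduced from them by elimination; over 252240 pairs of gene and cluster the resulting sums showed 0 differences. Members, gene lists and panels were chosen with earlier results of these data known.

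The library of a cell was read from its barcode suffix. UMIs were summed per library and cluster, scaled with TMM (edgeR 4.0.16 in R 4.3.3) and compared as log2 ratios after adding 0.5 UMI, with no test and no p-value. Genes with fewer than 20 UMIs observed or expected in cluster 7 in either library were left out. Levels are UMIs per 10000 UMIs. The call rule was also run on simulated counts, the outcome of which is not reported or used here. Total depth was 145631299 and 137818568 UMIs, and intervals are exact at 95% and cover counting error only; where no UMI or cell was seen, 3 were taken as the upper limit. Named genes were the 4 given markers, the 12 highest and 12 lowest called genes with a symbol and a level of at least 1 against all other cells, the 6 highest and 6 lowest against clusters 9, 13 and 14, and in each list the 4 members with the most UMIs and any called member; cells near a panel limit lay within 0.8 to 1.25 times it; the genes followed into the panel classes and the library comparison were chosen after their values were seen. Some genes that this rule names are not reported here. Doublets were scored with Scrublet in scanpy 1.11.5; its automatic threshold called 1 cell, so the highest 8% of scores in each library were taken instead. They were kept in all main values. Alternatives were plain shares, DESeq2 1.42.0 size factors, other minimum counts, a 3-fold limit, and leaving out ribosomal protein genes, shallow cells, doublets or a library.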

Additional observations from a re-analysis of the deposited data

How the results depend on the processing

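Counts of genes at least 2-fold higher or lower moved with the scaling, the limits and the libraries used. On plain shares they were 1433 higher and 428 lower against all other cells, 588 lower against cluster 9, 1321 and 417 against cluster 13, and 1977 and 581 against cluster 14. With a 3-fold limit they were 168 and 283 against all other cells, 470 and 322 against cluster 9, 198 and 324 against cluster 13, and 512 and 514 against cluster 14. With a minimum of 50 UMIs 631 of 3697 genes were lower than in all other cells and 680 of 3790 than in cluster 9. Without the filter on low counts 2539 of 16816 and 2628 of 14953 were lower, and 1795 of 13357 and 2273 of 13497 higher than in clusters 13 and 14, so the number of genes compared changed with the counts. Leaving out one library, so that 1 library alone decides, gave 1021 to 1068 higher genes against all other cells, 1045 to 1457 higher and 1157 to 1362 lower against cluster 13, and 1605 to 1885 higher against cluster 14. Between cells of clusters 7 and 9 high in panel 9 it gave 597 to 899 higher and 660 to 807 lower genes, the larger number each time without replicate 1. All other counts of calls stayed within 1.5 times.

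Over the settings run, the list median against all other cells ranged from 1.69 to 2.18 for fibrillar collagens, from -2.11 to -1.58 for ribosomal proteins, from 0.88 to 1.34 for chromatin regulators and from -1.43 to -0.93 for the respiratory chain. Those of S phase (-0.07 to 0.40), G2/M (-0.12 to 0.35) and muscle structure genes (-0.16 to 0.83) changed sign. Of 255 alternative values of 32 list medians, 163 moved by less than the spread between the libraries and 9 changed sign. Of 1390 values of 175 named genes, 1055 moved by less than that spread and 40 changed sign, and no gene turned from higher to lower or back. Thinned to 500 UMIs, PDGFRA was seen in 5.86% and NOTCH3 in 9.32% of the cells of cluster 7, COL1A1 in 94.8% and COL1A2 in 99.2%.

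Each log2 ratio sets cluster 7 beside other cells of the same library, so the comparisons are paired by library as they stand, and no test was made. The planned description by protein length and hydrophobic segments was not run, as no protein sequences were used here, and leaving out ribosomal and mitochondrially encoded genes together left out ribosomal protein genes only. With a median of 1389 UMIs per cell, a cell without a UMI of PDGFRA or NEB does not show that the gene was off. The panel classes, their limits and the doublet rule were chosen after seeing the data.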
